A study of Mus musculus with 24 samples.

Results

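The 84 genes described here carry the symbols of cytosolic ribosomal proteins, and nearly all encode such a protein. The rule that chose them uses the symbol and a minimum count: all protein-coding mouse genes with an Rpl or Rps symbol followed by a number, together with Rplp0, Rplp1, Rplp2 and Rpsa, and without the Rps6k kinases. Of 92 such genes, 84 reached a mean of 10 raw counts over the libraries, 51 of the large and 33 of the small subunit, among the 55385 genes counted and the 36766 with at least 1 count. Rpl23a, at a mean of 13.96 counts, and Rps23, at 27.96, lay just inside that minimum. Rps27rt, at 8.875, and Rpl10-ps3, at 4.96, lay just outside, and the other genes left out were Rpl3l, Rpl39l, Rpl9-ps1, Rpl36-ps4, Rps12-ps3 and Rpl10l.

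RNA was sequenced from the hippocampus (HIP) and the entorhinal cortex (EC) of 6 Ts65Dn and 6 wild-type (wt) male littermates aged 5 to 6 months, which gave 24 libraries of 23128589 to 40476492 counted reads. All mice were on the mixed B6C3B background, a cross of C57BL/6J with a sighted C3H line. Ts65Dn mice, a model of Down syndrome, carry an additional small chromosome that holds the part of mouse chromosome 16 homologous to human chromosome 21 and, beside it, a centromeric piece of chromosome 17 that is not. Genotype and region were the only factors, and each library came from 1 region of 1 mouse.

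A ribosome is built from a small subunit, which reads the mRNA, and a large subunit, which joins amino acids, and each subunit needs most of its proteins in equal numbers. Most of their mRNAs begin with a run of pyrimidines, the terminal oligopyrimidine (TOP) tract, through which the kinase mTOR adjusts how much they are translated. In neurons ribosomes are also carried into dendrites and axons, where protein synthesis contributes to lasting synaptic change.

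The genes were spread over 20 chromosomes, with 14 on chromosome 7 and 4 on the X. None lay in an interval triplicated in Ts65Dn, although 2 were on chromosome 16 and 7 on chromosome 17. The genes were short, with a median principal transcript of 834 bases against 3030.5 bases for all coding genes tested, and their median GC content was 51.6% against 50.9%. A property of this family affects every count below: 82 of the 84 genes shared stretches of 50 bases, the length of the reads, with at least 1 pseudogene, the median being 8 pseudogenes and the highest 120, for Rpl7a. Over the 84 genes a median of 52.5% of all 50-base stretches occurred in another gene, and for 45 genes the share exceeded 50%. Reads from such stretches align to several places, and HTSeq-count, by which the reads were counted, leaves these out by default, so the level of a member with many shared stretches may be understated.

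Sequences around the transcription start are shown first for 4 genes whose values are described below, because the TOP tract begins at that base. Each window runs from 15 bases before to 15 bases from the annotated start on the strand of the gene (RefSeq, GRCm38.p6), and capitals mark a run of at least 8 C or T bases that came within 10 bases of the start, also where the end of the window cuts the run, as it does the run of Rpl31 and the second run of Rpl38.
Rplp2, chr7:141447636-141447665, plus strand: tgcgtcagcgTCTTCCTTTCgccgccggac
Rpl31, chr1:39367836-39367865, plus strand: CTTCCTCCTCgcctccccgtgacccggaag
Rpl38, chr11:114668565-114668594, plus strand: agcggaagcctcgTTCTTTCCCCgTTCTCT
Rpl11, chr4:136053379-136053408, minus strand: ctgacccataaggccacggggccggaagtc
Rplp2, Rpl31 and Rpl38 had such a run, whose letters are not in the Rpl11 window. The run of Rplp2 and the first run of Rpl38 covered the annotated start, while the run of Rpl31 ended before it. Among the 62 members with a RefSeq start window, 29 (46.8%) had a run on the gene's own strand, against 4259 of 27025 gene symbols (15.8%) and 9 of 69 genes for mitochondrial ribosomal proteins (13.0%). The share was 48.6% for the large subunit, 18 of 37, and 44.0% for the small subunit, 11 of 25. A run is a description of the letters in the window and depends on which base is annotated as the start. The counts include runs that end before that base, and so lie outside the annotated mRNA. Runs shorter than 8 bases were not counted.

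The members took 0.443% to 0.616% of all counted reads. As levels, in CPM (counts scaled to the same library total) per kilobase of principal transcript, averaged over the libraries, they ranged 612-fold around a median of 45.8. The highest were Rplp1 at 519, a phosphoprotein of the stalk that recruits elongation factors, Rps14 at 361, Rps15 at 331, Rps21 at 314 and Rpl8 at 281. The lowest were Rpl23a at 0.848, Rps23 at 0.981, Rpl17 at 1.68, Rpl21 at 2.82 and Rpl36al at 3.41. The median was 32.9 for members that shared over 50% of their 50-base stretches and 53.4 for those that shared less, and how far the unassigned reads set this order was not tested. Rplp1 and its partners in the stalk were unequal, at 73.7 for Rplp2 and 55.1 for Rplp0, and Rpsa, the laminin receptor homologue of the small subunit, was at 31.0. Paralogues were below the gene they resemble: Rpl22l1 was at 27.7 and Rpl22 at 39.1, Rps27l at 11.3 and Rps27 at 168, Rpl36a-ps1 at 7.12 and Rpl36a at 57.1, and Rpl9-ps6 at 27.0 and Rpl9 at 101. The rule also took in Rpl7l1, a factor of ribosome biogenesis, at 13.7 and Rps19bp1, a binding partner of Rps19, at 15.5.

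A short account of the libraries precedes the comparisons. Marker genes fitted the labelled regions, since 8 dentate and CA neuron genes summed to 930 to 1345 CPM in the HIP against 161 to 189 in the EC, and 8 cortical genes to 227 to 391 and 658 to 868. The triplicated genes, whose median fold over the wt mean ranged from 0.987 to 1.02 in wt libraries, were at a median of 1.44 (HIP) and 1.42 (EC) in Ts65Dn, but at 1.02 and 1.01 in the library labelled Ts65Dn replicate 3, which therefore goes against its label in both regions. No 2 libraries of a group agreed within sampling noise, the smallest mean chi-square per gene being 7.69. In the EC, wt replicate 2 and the library labelled Ts65Dn replicate 3 stood apart for the ribosomal protein genes, with 78 and 75 of the 84 members above the mean of the region and a median deviation of 0.29 and 0.25 on the log2 scale, against -0.20 to 0.03 in the other EC libraries. In the same libraries the summed blood markers were 545 and 300 CPM, and the rank correlation, across genes, of the deviation from the region mean with gene length was -0.233 and -0.250. Among the other EC libraries, wt replicate 3 had blood markers at 345 CPM and a length correlation of 0.163. Ts65Dn replicate 5 had 117 CPM and -0.192, and each of these 2 libraries had a median deviation of 0.03. The rank correlation with GC content also moved with genotype, ranging from -0.391 to 0.133 in wt and from -0.131 to 0.357 in Ts65Dn in the HIP, and from -0.405 to 0.0831 and from -0.0945 to 0.480 in the EC. The highest EC values of the 2 genotypes belonged to wt replicate 2 and the library labelled Ts65Dn replicate 3. The mitochondrially encoded genes took a larger share of counts in the EC than in the HIP of 12 of 12 mice, at 3.81% to 4.598% (HIP) and 4.51% to 7.06% (EC) in wt, where 7.06% belonged to replicate 2, and at 3.40% to 4.39% and 3.82% to 5.07% in Ts65Dn. The part of these features in the results below was not tested except where a value without the library or with the GC and length trends removed is given.

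The first comparison asked how the 2 regions of one mouse differed. In wt mice the summed level of the 84 genes was 4327, 4626 and 4800 CPM in the HIP (lowest, median and highest) and 4851, 5119 and 6460 CPM in the EC. In Ts65Dn mice it was 4511, 4636 and 4818 CPM in the HIP against 4762, 5223 and 6358 CPM in the EC. The HIP was below the EC in 12 of 12 mice, while the ranges of the 2 regions met only in Ts65Dn. The HIP value was 0.743 to 0.924 of the EC value in wt mice, with a median of 0.898, and 0.716 to 0.988 in Ts65Dn mice, with a median of 0.881. In bulk tissue, fewer cells that express these genes and less RNA of them per cell cannot be told apart.

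**Figure D1:**
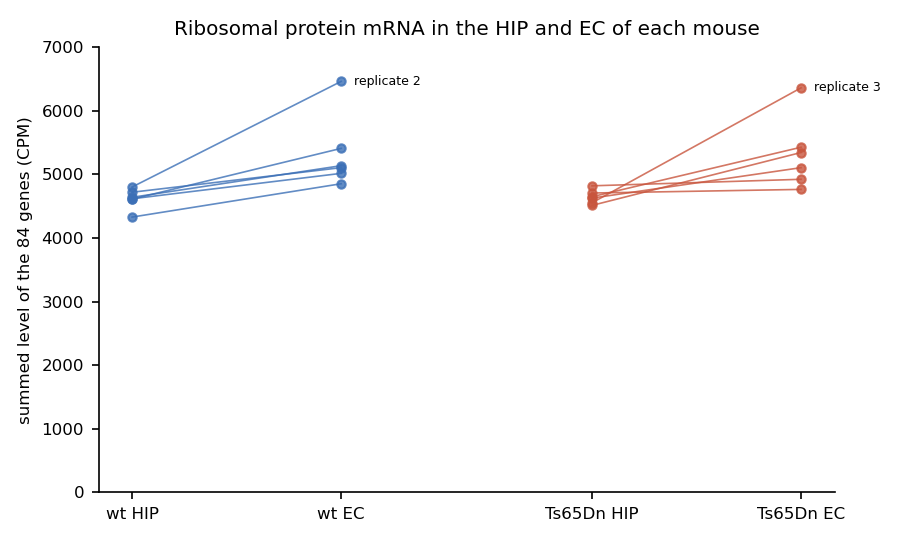
The summed level of the 84 ribosomal protein genes (CPM, linear axis from 0) is plotted for each library, with a line joining the HIP and EC of one mouse (blue wt, red Ts65Dn). Each of the 12 lines rises from HIP to EC, and wt replicate 2 (6460 CPM) and the library labelled Ts65Dn replicate 3 (6358 CPM) are the highest EC values.

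Gene by gene, 51 members were lower and 1 was higher in the HIP of wt mice (edgeR's quasi-likelihood test with the mouse as a block, Benjamini-Hochberg adjusted p under 0.05 over 17196 genes), where 30.3% of all genes tested were called lower and 31.0% higher. In Ts65Dn mice 41 were lower and 2 higher, against 25.7% and 26.6% of 17314 genes. The median log2 fold change of the members, HIP over EC, was -0.22 in wt and -0.21 in Ts65Dn, while that of all genes tested was 0.00 in wt. The medians of the subunits were close: in wt the large subunit had 30 lower, 1 higher and a median of -0.22 and the small subunit 21 lower, 0 higher and -0.22, and in Ts65Dn the values were 25, 1 and -0.23 and 16, 1 and -0.21. In both genotypes 39 members were called lower, as were 23.8% of the 16953 genes tested in both. In every one of the 12 mice 24 members were lower in the HIP, among them Rpl8, Rpl19, Rpl14 and Rpl32, where 19.9% of 16953 genes were. Of the 39 members that shared at most 50% of their stretches 26 were lower in wt, and of the other 45 members 25, with 22 and 19 in Ts65Dn, and the difference between these shares was not tested.

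The size of the difference varied between mice. In wt 60 to 78 of the 84 members were lower in the HIP of a mouse, with a median difference over the members of -0.40 to -0.11 on the log2 scale, and in Ts65Dn 48 to 78, with -0.48 to -0.02, the extremes being the mouse labelled replicate 3 and replicate 6. Rpl12, which binds at the base of the stalk, ranged from 53.3 to 66.0 CPM in the HIP of wt mice (median 58.0) and from 70.9 to 95.5 CPM (median 81.2) in their EC. In Ts65Dn mice it ranged from 51.4 to 60.1 CPM (median 53.9) and from 66.7 to 86.3 CPM (median 72.5). No HIP library reached the EC range, and the log2 fold change was -0.47 ± 0.04 (SE) in wt and -0.47 ± 0.07 in Ts65Dn (edgeR, adjusted p = 3.07e-06 and 0.000228, n = 6 mice each). Its start window had no pyrimidine run of 8, and the shorter run just after the start was not counted.
Rpl12, chr2:32961697-32961726, plus strand: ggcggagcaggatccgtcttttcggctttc
Rps20, a component of the small subunit head, was at 45.2 to 56.4 CPM (median 50.1) in the HIP against 59.6 to 84.7 CPM (median 65.4) in the EC of wt mice, and at 49.4 to 56.2 (median 52.8) and 54.0 to 75.9 CPM (median 65.9) in Ts65Dn mice. The wt ranges were separate and the Ts65Dn ranges met, with log2 fold changes of -0.42 and -0.29.
Rpl31, beside the exit of the peptide tunnel, was at 32.7 to 38.8 CPM (median 36.5) in the HIP against 40.0 to 60.2 CPM (median 44.3) in the EC of wt mice. In Ts65Dn mice it was at 35.0 to 39.4 (median 38.4) and 46.2 to 63.1 CPM (median 49.0), so that the regions were separate in each genotype, with log2 fold changes of -0.37 and -0.42. Of the other strongly lower members, the log2 fold change in wt and then in Ts65Dn was -0.42 and -0.49 for Rpl39, -0.43 and -0.36 for Rpl38, -0.41 and -0.34 for Rpl37a, and -0.38 and -0.37 for Rps15. It was -0.42 and -0.29 for Rps21, with the Ts65Dn call lost without Ts65Dn replicate 5 (adjusted p = 0.0522). For Rpl17 (-0.46 and -0.52), Rpl36al (-0.36 and -0.50), Rpl36a-ps1 (-0.31 and -0.42) and Rpl27 (-0.26 and -0.37), which had few counts or many shared stretches, the call was lost when 1 mouse was left out, with adjusted p up to 0.138 in wt and 0.129 in Ts65Dn.

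**Figure D2:**
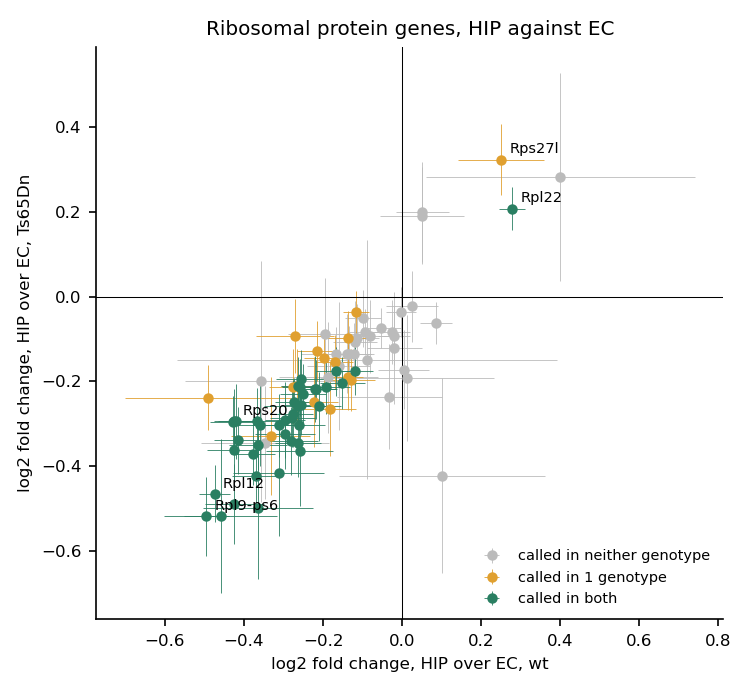
Each point is 1 of the 84 genes, with its log2 fold change (HIP over EC) in wt on the horizontal and in Ts65Dn on the vertical axis, lines for the standard errors, and green, orange and grey for genes called in both genotypes, in 1 and in none. Most points lie below 0 on both axes around the medians of -0.22 and -0.21, and Rpl22 and Rps27l are called above 0.

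The exception to this direction was Rpl22, a large subunit protein whose loss is compensated by the paralogue Rpl22l1. Rpl22 was at 79.8 to 95.6 CPM (median 87.5) in the HIP against 63.2 to 79.8 CPM (median 72.4) in the EC of wt mice, and at 81.7 to 95.4 (median 86.4) and 70.1 to 81.0 CPM (median 74.2) in Ts65Dn mice. It was higher in the HIP in 12 of 12 mice, with log2 fold changes of 0.28 (edgeR, adjusted p = 3.99e-05) and 0.21 (adjusted p = 0.00583). Rpl22l1 went the other way in wt, at 13.5 to 15.5 CPM (median 14.6) in the HIP against 13.3 to 22.1 CPM (median 17.1) in the EC, a log2 fold change of -0.27 (adjusted p = 0.0343). In Ts65Dn mice its log2 fold change was -0.09 (adjusted p = 0.393), and whether this differed from wt was not resolved, since 0 members passed the test of the difference given further below. Rps27l, a paralogue of Rps27 induced by p53, ranged from 5.79 to 7.18 CPM (median 6.19) in the HIP against from 4.25 to 5.74 CPM (median 5.13) in the EC of Ts65Dn mice. It was called higher there (0.32, adjusted p = 0.00857, higher in 6 of 6 mice), with a log2 fold change of 0.25 in wt that did not pass (adjusted p = 0.069). Its parent Rps27 was at -0.26 and -0.21, the latter not passing (adjusted p = 0.0644).

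Among the stalk genes, Rplp1 had 211, 237 and 247 CPM (lowest, median and highest) in the HIP against 251, 264 and 363 CPM in the EC of wt mice, a log2 fold change of -0.26 (edgeR, adjusted p = 0.00495), and -0.19 in Ts65Dn (adjusted p = 0.0333). Rplp2 had a log2 fold change of -0.22 in wt (adjusted p = 0.00407) and -0.13 in Ts65Dn (adjusted p = 0.149). Rplp0, the scaffold on which both sit, had -0.11 and -0.10 and passed in neither genotype (adjusted p = 0.0989 and 0.335). Rpsa was at -0.22 in both genotypes (adjusted p = 0.00575 and 0.0382).

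A near-identical pair shows what separates 2 counts in this family. The annotation lists Rpl9-ps6 on chromosome 19 as a coding gene of 1 exon, and 691 of 692 aligned bases are those of Rpl9 on chromosome 5 (99.9%), the only substitution being G336A, counted from 1 at the start of the Rpl9 transcript. The 30 bases around it are shown with the differing base in capitals (GENCODE vM21 transcripts, GRCm38), since reads from the aligned part can be assigned to 1 of the genes only where they cover that base.
Rpl9, chr5:65389581-65389610, minus strand: ggcttccGatacaagatgcggtctgtgtac
Rpl9-ps6, chr19:32466264-32466293, minus strand: ggcttccAatacaagatgcggtctgtgtac
Rpl9-ps6 was at 13.0 to 16.6 CPM (median 14.6) in the HIP against 16.3 to 24.8 CPM (median 20.9) in the EC of wt mice, and at 14.2 to 19.6 (median 17.2) and 20.9 to 27.1 CPM (median 25.0) in Ts65Dn mice. Its log2 fold change was -0.50 in wt and -0.52 in Ts65Dn, that of Rpl9 was -0.43 and -0.29, and reads of the 2 genes cannot be kept fully apart.

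The lists of related genes gave the setting. Of 3 ribosomal protein genes with other symbols, 2 were lower and 0 higher in each genotype. The lower ones were Fau, at -0.34 in wt and -0.29 in Ts65Dn, and Rack1, the kinase scaffold of the small subunit, at -0.19 and -0.20. Of 9 elongation factor genes 6 were lower and 0 higher in wt, with a median of -0.23, and 6 and 0 in Ts65Dn, with a median of -0.27. The wider list of 20 genes for elongation and other TOP mRNAs had 8 lower and 5 higher in wt (median -0.09) and 7 and 2 in Ts65Dn (median -0.01). Eef1a2, the elongation factor isoform of neurons, had the largest difference among the 9, at -0.58 in each genotype, and Eif5a was at -0.33 in each. Genes for ribosome biogenesis did not follow, with 11 of 56 lower and 24 higher in wt (median 0.11) and 13 and 13 in Ts65Dn (median 0.03). Nuclear respiratory chain subunits did, with 57 of 82 lower and 3 higher in wt (median -0.20) and 38 and 3 in Ts65Dn (median -0.16). For mitochondrial ribosomal proteins 25 of 77 were lower and 7 higher in wt (median -0.09) and 27 and 2 in Ts65Dn (median -0.12), for initiation factors 15 and 5 of 37 (median -0.08) and 13 and 2 (median -0.07), and for proteasome subunits 21 and 2 of 40 (median -0.12) and 18 and 0 of 39 (median -0.13). In the mTOR pathway list 16 of 30 genes were lower and 8 higher in wt, and 11 and 5 in Ts65Dn. Eif4ebp1, a translational repressor that mTOR inactivates, had -1.42 and -1.05, Deptor, an mTOR inhibitor, -0.60 and -0.48, and Ddit4, another inhibitor, 0.90 and 0.76. The S6 kinase genes Rps6kb1 and Rps6kb2 were higher in the HIP, at 0.26 and 0.35 and at 0.81 and 0.67.

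The cell makeup of the 2 regions differed beside these results. The 6 oligodendrocyte genes summed to 6698 to 10520.5 CPM in the HIP against 1386 to 2859 in the EC, and the 7 choroid plexus genes to 56.7 to 5251 and 9.16 to 52.1. The 5 astrocyte genes summed to 1496 to 1900 CPM in the HIP against 1112 to 1739 in the EC, microglial genes to 329 to 400 and 362 to 525, endothelial genes to 184 to 226 and 203 to 298, and blood genes to 57.3 to 153 and 105 to 545. Striatal genes summed to 55.9 to 89.6 CPM in the HIP against 161 to 243 in the EC, and meningeal genes to 31.7 to 155 and 35.9 to 107. None of the marker genes was at 0, and their part in the lower HIP level of ribosomal protein mRNA was not tested. Without wt replicate 2, whose EC library stood apart, 40 members were lower in wt with a median of -0.16. Without Ts65Dn replicate 3, 28 were lower in Ts65Dn with a median of -0.14, and without Ts65Dn replicate 5, 25 were lower. With the GC and length trends of each library removed, the median was -0.23 in wt and -0.21 in Ts65Dn.

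The second comparison was between genotypes in the HIP. Here 5 members passed the test, 3 higher and 2 lower in Ts65Dn (edgeR's quasi-likelihood test, adjusted over 17355 genes), against 1.04% of all genes. At an unadjusted p under 0.05 there were 26 members, 11 higher and 15 lower, against 14.8% of all genes. The members moved in both directions around a median log2 fold change of -0.02, with 38 above and 46 below 0. The 6 Ts65Dn and 6 wt values did not overlap for 7 members (1.67% of all genes): Rplp2, Rpl11, Rps21, Rps4x, Rpl27, Rpl37a and Rpl8. The library labelled Ts65Dn replicate 3, whose triplicated genes go against its label, is counted as Ts65Dn here and below. Its values were 75.8 CPM for Rplp2, 72.3 for Rpl11, 120 for Rps21 and 75.5 for Rps4x. These genes were listed because the groups did not overlap with that library counted as Ts65Dn. That its values lay beyond those of the wt mice was therefore fixed by the choice of genes.

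Rplp2 (ENSMUSG00000025508, chr7:141447370-141451585), the second phosphoprotein of the stalk, was at 50.4, 59.1 and 62.5 CPM (lowest, median and highest) in the HIP of wt mice and at 73.8, 75.2 and 76.9 CPM in that of Ts65Dn mice. All values labelled Ts65Dn, replicate 3 included, were above all wt values, and they lay close together. The log2 fold change was 0.36 ± 0.05 (SE, n = 6 mice per genotype, edgeR, adjusted p = 0.00316), and it passed whichever mouse was left out, with adjusted p at most 0.0113. In the EC the values were 59.4, 65.8 and 85.0 CPM in wt and 69.7, 81.8 and 106 CPM in Ts65Dn, a log2 fold change of 0.28 that did not pass (adjusted p = 0.149).

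Rpl11 (ENSMUSG00000059291, chr4:136028265-136053428), which forms a particle with the 5S rRNA and Rpl5 and binds the p53 regulator Mdm2, was at 56.5, 60.7 and 66.8 CPM in wt and at 69.1, 73.1 and 74.6 CPM in Ts65Dn in the HIP. The groups did not overlap, the log2 fold change was 0.25 ± 0.04 (SE, edgeR, adjusted p = 0.0167), and it passed whichever mouse was left out, with adjusted p at most 0.0437. In the EC it was at 59.3, 66.8 and 83.2 CPM in wt and 72.7, 80.0 and 96.9 CPM in Ts65Dn, a log2 fold change of 0.25 that did not pass (adjusted p = 0.119).

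Rps21 (ENSMUSG00000039001, chr2:180257377-180258445), a small subunit protein needed for rRNA maturation, was at 79.7, 94.8 and 113 CPM in wt and 117, 119 and 123 CPM in Ts65Dn in the HIP. The Ts65Dn values were nearly the same in every mouse and the wt values were spread. The log2 fold change of 0.31 ± 0.07 was just past the threshold (edgeR, adjusted p = 0.0496), and it passed in 1 of the 12 fits with a mouse left out, that without wt replicate 2 (adjusted p = 0.0238), the others giving 0.052 to 0.121. The EC values, 103, 119 and 183 CPM in wt and 124, 142 and 210.04 CPM in Ts65Dn, overlapped.

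Rps4x (ENSMUSG00000031320, chrX:102184941-102189394), the X-linked small subunit protein, was lower in Ts65Dn, at 82.3, 89.2 and 92.7 CPM in wt and at 74.7, 76.4 and 80.7 CPM in Ts65Dn in the HIP. The groups did not overlap and the log2 fold change was -0.20 ± 0.04 (edgeR, adjusted p = 0.0269), which was lost without wt replicate 2, 3, 4 or 5 or Ts65Dn replicate 1, 4 or 6 (adjusted p up to 0.0697). In the EC it was at 87.2, 97.2 and 118 CPM in wt and 73.1, 85.2 and 98.1 CPM in Ts65Dn, a log2 fold change of -0.22 (adjusted p = 0.146).

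Rpl23 (ENSMUSG00000071415, chr11:97777527-97782437), another large subunit protein that binds Mdm2, was at 54.0, 59.2 and 61.4 CPM in wt and 45.5, 47.4 and 54.5 CPM in Ts65Dn in the HIP, and the groups met at their edges. Its log2 fold change was -0.26 ± 0.05 (edgeR, adjusted p = 0.0363), which stayed past the threshold when wt mouse 1 or Ts65Dn mouse 2 or 3 was left out, and was lost in the other fits with a mouse left out (adjusted p up to 0.0909). In the EC the log2 fold change was -0.21 (adjusted p = 0.161), from 58.1, 62.6 and 72.9 CPM in wt and 46.8, 54.4 and 66.9 CPM in Ts65Dn. The start windows of Rps21, Rps4x and Rpl23 held no pyrimidine run of 8, and are shown for comparison with that of Rplp2.
Rps21, chr2:180257364-180257393, plus strand: taccgaggacccgccctcctgcccaatagt
Rps4x, chrX:102189377-102189406, minus strand: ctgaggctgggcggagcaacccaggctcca
Rpl23, chr11:97782425-97782454, minus strand: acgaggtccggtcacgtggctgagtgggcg

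**Figure D3:**
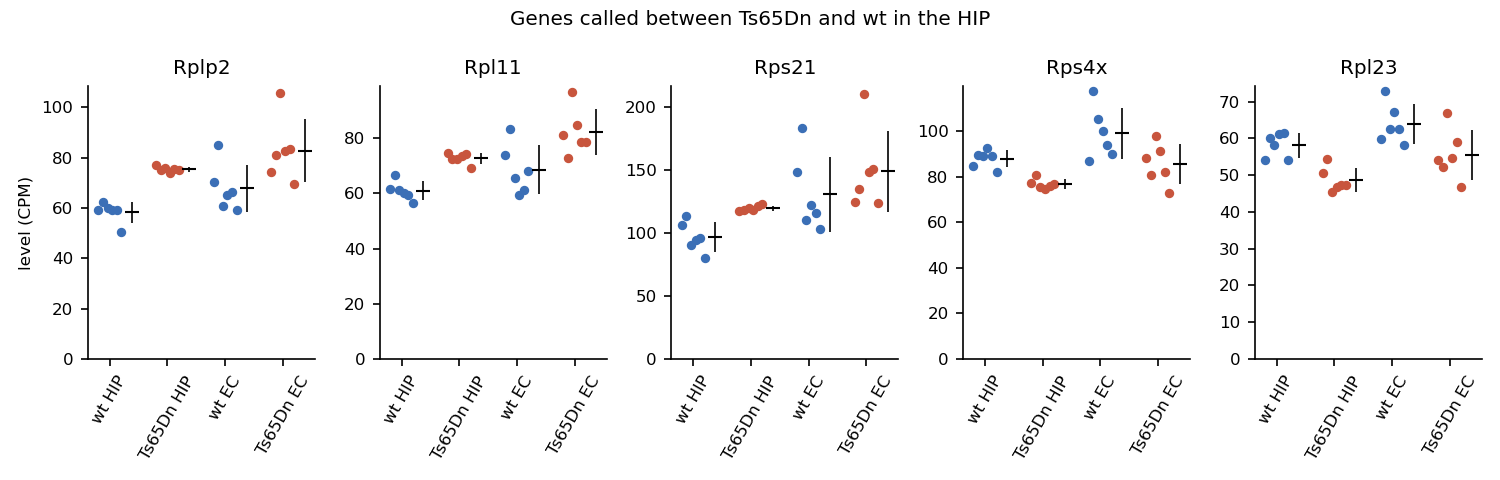
Each panel shows 1 gene called between genotypes in the HIP, with the level in every library (CPM, linear axis from 0, blue wt, red Ts65Dn) and, beside the points, the mean with its SD (n = 6 mice). Rplp2, Rpl11 and Rps21 are higher and Rps4x and Rpl23 lower in the HIP of Ts65Dn mice, and the EC points of every gene are more spread and overlap.

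The number of HIP calls depended on the fit. With the trends in GC content, which moved with genotype as given above, and in length removed, Rplp2 (adjusted p = 0.00763) and Rpl23 (adjusted p = 0.033) remained. Without the library labelled Ts65Dn replicate 3, 4 members passed, all but Rps21 (adjusted p = 0.0561). DESeq2 called 14, 7 higher and 7 lower, where it called 3.94% of 16003 genes, adding Rpl8, Rps27a, Rpl7, Rpl37a, Rps10, Rpl36, Rpl5, Rps12 and Rpl27. Of these, Rpl27 (log2 fold change -0.35, adjusted p = 0.0808) and Rpl7 (-0.23, adjusted p = 0.0813) came nearest in edgeR. The partner genes of the stalk did not move with Rplp2: the log2 fold change was 0.05 ± 0.05 for Rplp1, at 211, 237 and 247 CPM in wt and 223, 246 and 261 CPM in Ts65Dn, and -0.11 ± 0.12 for Rplp0 (adjusted p = 0.668 and 0.734).

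In the EC, edgeR called 0 members between genotypes (2.5% of 17049 genes were called), with 17 at an unadjusted p under 0.05, 8 higher and 9 lower (19.0% of all genes), and for 0 members were the 2 groups separate (2.46% of all genes). DESeq2 called 5, where it called 7.03% of 15723 genes. The median log2 fold change was -0.02, and -0.06 without the library labelled Ts65Dn replicate 3. It was 0.04 without wt replicate 2. The 5 smallest p-values belonged to Rps12, Rpl13, Rpl36, Rpl15 and Rps27a, which were also the 5 that DESeq2 called. Rps12, at 22.9, 25.1 and 30.6 CPM in wt and 28.4, 32.0 and 38.2 CPM in Ts65Dn, had a log2 fold change of 0.35 ± 0.09 (edgeR, adjusted p = 0.0538). Rpl13, at 17.3, 21.6 and 28.8 CPM in wt and 24.6, 31.9 and 40.4 CPM in Ts65Dn, had 0.53 ± 0.14 (adjusted p = 0.0629). For both genes the 2 groups overlapped. Rpl36 had 0.48 (adjusted p = 0.0955), Rpl15, from 75.1, 77.1 and 88.9 CPM in wt to 51.3, 65.9 and 75.7 CPM in Ts65Dn, had -0.28 (adjusted p = 0.0964), and Rps27a, encoding a fusion of ubiquitin with a small subunit protein, had -0.48 (adjusted p = 0.101). Without wt replicate 2, Rplp2 (adjusted p = 0.0495), Rpl11 (0.0397) and Rps12 (0.0294) passed, and without wt replicate 5, Rpl13 did (0.0459).

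**Figure D4:**
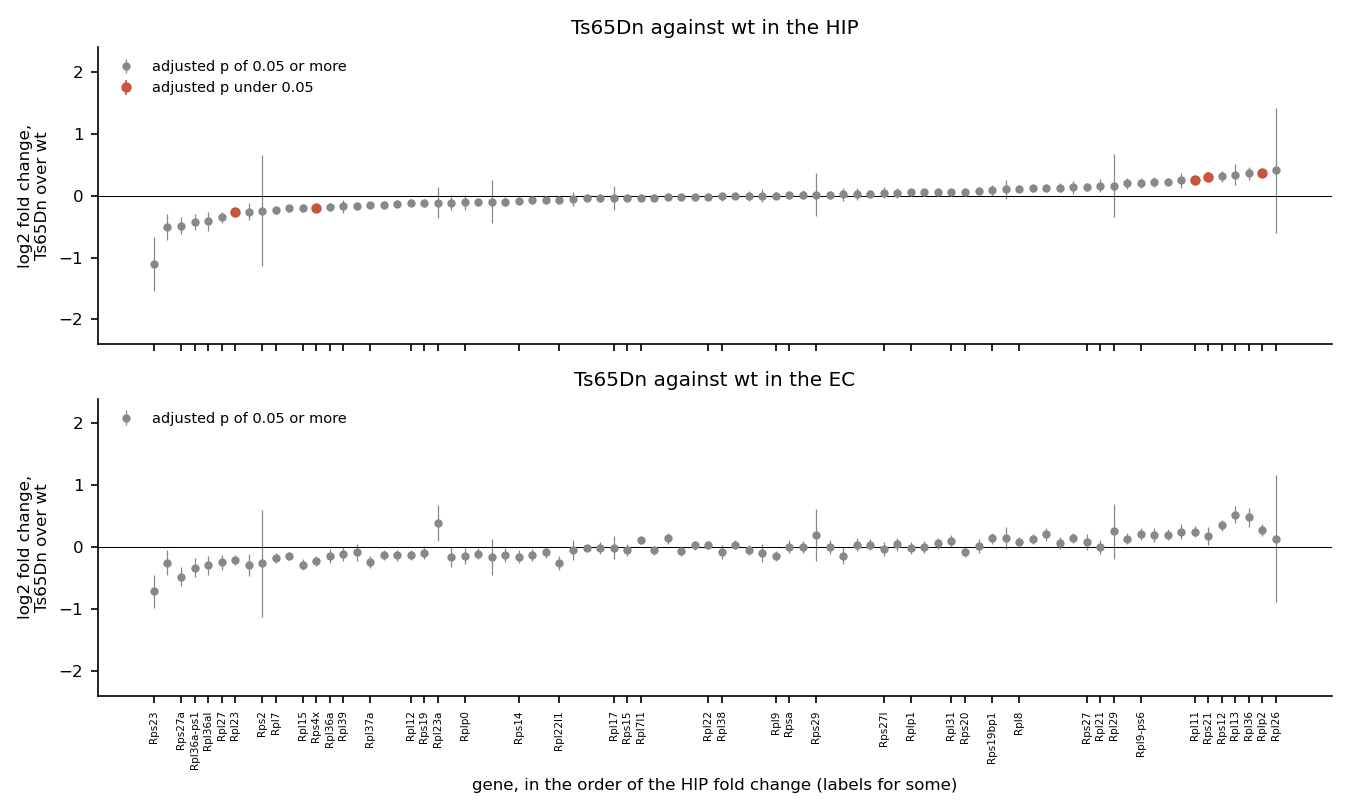
The log2 fold change of each gene (Ts65Dn over wt, with its standard error as a line) is plotted for the HIP above and the EC below, in the order of the HIP values with some genes labelled, and red points passed the test. The 84 genes lie on both sides of 0 around a median of -0.02 in each region, 5 points are red in the HIP against 0 in the EC, and Rps2, Rpl26 and Rpl29 have wide errors.

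Related lists had few calls between genotypes. Elongation factors had 0 of 9 called in either region, and Fau was at 0.24 on the log2 scale in the HIP (adjusted p = 0.152). Npm1, which chaperones ribosomal proteins in the nucleolus, was lower in the HIP (-0.32, edgeR, adjusted p = 0.0078), as was Pdcd4, a repressor of the helicase Eif4a (-0.21, adjusted p = 0.0224). Eif4e, the cap-binding factor, was lower in the EC (-0.22, adjusted p = 0.0372), as was Eif2s3x (-0.22, adjusted p = 0.0482). These were the 2 called of 37 initiation factors there (5.41%), against 2.5% of all genes tested. The triplicated mitochondrial ribosomal protein genes are a rough scale for the size of a dosage change: Mrps6 had 0.66 in the HIP (adjusted p = 0.0502) and 0.73 in the EC (adjusted p = 0.0073), and Mrpl39 had 0.44 (adjusted p = 0.0813) and 0.43 (adjusted p = 0.0226). These fits include the library labelled Ts65Dn replicate 3, whose triplicated genes were at 1.02 (HIP) and 1.01 (EC) of the wt mean. Its part in these values is not given here.

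Whether the Ts65Dn difference itself differed between the regions was tested with an interaction term and a term for each mouse over 18109 genes. By edgeR, 0 genes and 0 members were called, while 4.1% of genes had an unadjusted p under 0.05, and 1 member did, Rpl7l1 (-0.15 ± 0.06, unadjusted p = 0.0244). DESeq2 also called 0 members. The interaction was 0.09 ± 0.09 for Rplp2, -0.01 for Rpl11, 0.13 for Rps21, 0.02 for Rps4x and -0.05 for Rpl23. The calls in the HIP against their absence in the EC are therefore not shown to differ.

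Some members varied widely between mice of one genotype, which was noticed after the values were seen. The SD of log2(CPM + 0.1) between mice of one genotype was over 1 in both regions for 3 members, Rpl26 (3.12 in the HIP against 3.65 in the EC), Rps2 (2.38 and 2.37) and Rpl29 (1.32 and 1.09). That was 3 of 84 members (3.57%), against 147 of 18109 genes (0.812%) and 48 of 14812 coding genes (0.324%), while the median SD of the members was 0.117 in the HIP against 0.195 in the EC. The next were Rpl35, at 0.778 and 0.618, and Rps29, at 0.741 and 0.956.

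Rpl26 (chr11:68901583-68906989), a large subunit protein at the mouth of the peptide tunnel, was at 63.0, 1.33, 32.4, 31.4, 0.298 and 21.8 CPM in the HIP of wt mice 1 to 6 and at 64.9, 41.6, 0.346, 57.3, 0.729 and 33.5 CPM in Ts65Dn mice 1 to 6. In the EC of the same mice it was at 80.8, 0.133, 39.3, 52.2, 0.330 and 45.6 CPM in wt and at 77.5, 46.1, 0.434, 77.7, 0.495 and 37.7 CPM in Ts65Dn. A mouse with a low value in one region had a low value in the other, and low, intermediate and high values occurred in both genotypes. Its processed pseudogene Gm15772 (chr5:3236431-3236868) went the opposite way, at 0.0747, 17.3, 7.59, 8.60, 18.9 and 7.13 CPM in the HIP of wt mice and 0.175, 9.05, 17.8, 0.216, 15.97 and 8.70 CPM in Ts65Dn mice. The 2 transcripts are identical at 436 of 438 aligned bases (99.5%), differing by C305T and T416C, counted from 1 at the start of the Rpl26 transcript and both in the coding part. Reads of the 2 cannot be kept fully apart, so a low count need not be a low level of Rpl26 mRNA, which was not tested. The window around the first is printed because reads over that base, in capitals, differ between these 2 copies (GENCODE vM21, GRCm38). Rpl26 shared 50-base stretches with 12 pseudogenes, and whether reads over that base also match another of them was not tested.
Rpl26, chr11:68903179-68903208, plus strand: gttgttcgCggacactacaaaggccagcag
Gm15772, chr5:3236599-3236628, plus strand: gttgttcgTggacactacaaaggccagcag

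Rps2 (chr17:24718116-24721929), a small subunit protein at the mRNA entry channel, was at 13.3, 23.5, 9.03, 11.6, 13.6 and 0.540 CPM in the HIP of wt mice 1 to 6 and at 0.385, 0.501, 20.3, 14.4, 0.510 and 25.0 CPM in Ts65Dn mice 1 to 6. In the EC it was at 14.0, 36.8, 13.8, 13.6, 13.4 and 0.836 CPM in wt and at 0.520, 0.703, 37.0, 16.3, 0.578 and 23.3 CPM in Ts65Dn. As for Rpl26, the 2 regions of a mouse went together, but the mice that were low were not the same ones except for Ts65Dn mouse 5. Its pseudogene Gm7638 (chr16:11185133-11186099), identical at 602 of 639 aligned bases (94.2%), was at 1.35, 0, 1.56, 1.05, 1.43 and 2.26 CPM in the HIP of wt mice and at 2.21, 1.21, 0.0693, 0.649, 1.09 and 0 CPM in Ts65Dn mice. The 3 mice with the highest Rps2 level were those with the lowest Gm7638 level. Here too a low count need not be a low level of the mRNA, which was not tested. For both genes the error of the genotype comparison was wide, with log2 fold changes for the HIP of 0.41 ± 1.004 for Rpl26 and -0.24 ± 0.90 for Rps2.

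**Figure D5:**
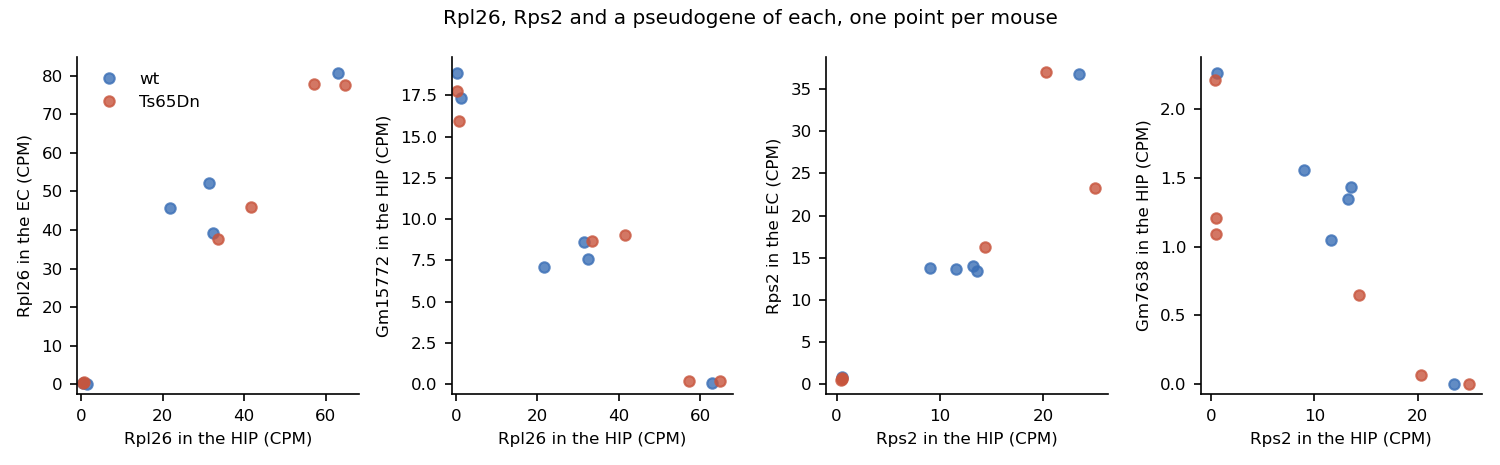
Each point is 1 mouse (blue wt, red Ts65Dn), and the panels plot the EC against the HIP level of Rpl26, the pseudogene Gm15772 against Rpl26 in the HIP, and the same pair of plots for Rps2 and Gm7638 (all in CPM, linear axes). Mice low in one region are low in the other for each gene, Gm15772 is highest, at 18.9 CPM, in the mouse with the lowest Rpl26, at 0.298 CPM, and mice of both genotypes occur along each axis.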

How the data were processed

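RNA from the HIP and EC of 6 wt and 6 Ts65Dn mice was sequenced as single-end 50-base reads. The authors demultiplexed reads (bcl2fastq 2.17.1.14 in the submitters' processing notes), aligned them with Hisat2 to GRCm38 (mm10, Ensembl 99 genes) and deposited raw counts from HTSeq-count, 55385 genes in 24 columns. The labels name a stranded mRNA kit, whereas the study's methods name a total RNA kit with rRNA removal and also call the extracted molecules polyA RNA. Symbols, lengths and GC content came from GENCODE vM21 (55144 identifiers, 99.6%, matched). CPM used TMM factors. Groups came from the labels, and HIP and EC libraries were paired by animal number. For that pairing, deviations from group means correlated at 0.252 to 0.455 in wt and 0.171 to 0.493 in Ts65Dn, over 0.1 in 6 of 6 mice each. Different mice of equal number in the 2 genotypes reached 0.230 (HIP) and 0.205 (EC), above the lowest Ts65Dn value. Correlations for HIP and EC libraries of different mice are not given here, so these values alone do not establish the pairing.

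Counts were tested with edgeR 4.0.16 (limma 3.58.1, R 4.3.3; quasi-likelihood, filterByExpr, Benjamini-Hochberg over all genes, threshold 0.05): genotype within each region, region within each genotype with the mouse as a block, and their interaction with a term per mouse. The procedure was tested on simulated data. Alternatives were DESeq2 1.42.0, its size factors, TMM without the members, other filters on low counts, removal of GC and length trends, the replicate block, and leaving out each mouse. Depth limits members with few counts.

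The members, lists and rules were chosen with earlier results of these data known. Named genes were up to 10 called members per direction by size of change, or the 5 smallest p-values where fewer than 3 were called, the 5 highest and lowest levels, the stalk genes and Rpsa, paralogue symbols with their parents, and called elongation factor and mTOR genes. Fau, Rack1, Mrps6 and Mrpl39 were also named. The initiation factors Eif4e and Eif2s3x were named outside this rule. A further trisomic line, Ts66Yah, was not analysed here.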

Additional observations from a re-analysis of the deposited data

Results flagged for a closer look

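Among 96 groups of 6 libraries examined, 9 had a library whose gap to its nearest neighbour was too large a share of the group's range (Dixon's criterion at the 95% level), and chance gives about 1 in 20. In the HIP of wt mice, the members' median deviation from the region mean was -0.088 on the log2 scale in replicate 6, the others being at 0.01 to 0.05, and Rplp2 was at 50.4 CPM in the same library against 59.0 to 62.5 CPM. Rpl15 was at 83.3 CPM in wt replicate 4, against 71.0 to 73.2 CPM. Rpl13 was at 14.9 CPM in Ts65Dn replicate 2 of the HIP, against 27.1 to 33.1 CPM. In the EC of wt mice, replicate 2 had a summed level of 6460 CPM (the others 4851 to 5407), Rps20 at 84.7 CPM (59.6 to 66.6) and Rps2 at 36.8 CPM (0.836 to 14.0). In the EC library labelled Ts65Dn replicate 3, Rps21 was at 210.04 CPM (124 to 151) and Rpl31 at 63.1 CPM (46.2 to 51.5).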

How the results depend on the processing

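No called result changed direction. The members' median log2 fold change between genotypes, near 0, changed sign with a mouse left out, from -0.06 to 0.04 in the EC and from -0.03 to 0.00 in the HIP. In the HIP the 5 calls between genotypes became 14 with DESeq2, 2 with GC and length trends removed, 2 without a filter on low counts, 1 with the replicate number as a block (Rplp2, adjusted p = 0.0393), 0 with that block and the trends removed, and 2 to 5 with a mouse left out. In the EC the 0 calls became 5 with DESeq2, 1 with at least 10 counts in every library (Rps12), 1 without a filter (Rpl13), and 0 to 3 with a mouse left out. Mice of equal number in the 2 genotypes are not known to share more than the number. Their deviations correlated at -0.273 to 0.230 (HIP) and -0.151 to 0.205 (EC), over 0.1 in 2 of 6 and 1 of 6 pairs. Why calls were lost under that pairing was not tested. For HIP against EC, 52 calls in wt became 42 to 55 and 43 in Ts65Dn became 27 to 47 with a mouse left out, and the fit with no replicate block gave 39 and 42. Of the values for counts of calls, 65 stayed on their side, 6 gained and 14 lost calls, and all 66 medians moved by less than the spread between mice. For named genes 423 values kept their call, 9 gained and 67 lost it. The causes were not tested.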

Other observations

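In the EC, Gm15772 was at 0.152, 30.7, 9.65, 12.3, 21.3 and 9.15 CPM in wt mice 1 to 6 and at 0.0273, 10.3, 27.2, 0.198, 22.5 and 8.44 CPM in Ts65Dn mice 1 to 6, low, intermediate or high in the same mice as in the HIP. Rpl26 fell into 3 separate ranges in the HIP: 4 mice (2 of each genotype) at 0.298 to 1.33 CPM, 5 mice (3 wt and 2 Ts65Dn) at 21.8 to 41.6 CPM and 3 mice (1 wt and 2 Ts65Dn) at 57.3 to 64.9 CPM. For Rps2 the ranges were 0.385 to 0.540 CPM in 4 mice (1 wt and 3 Ts65Dn), 9.03 to 14.4 CPM in 5 mice (4 wt and 1 Ts65Dn) and 20.3 to 25.0 CPM in 3 mice (1 wt and 2 Ts65Dn). The limits of these ranges were set after the values were seen, and the mouse labelled Ts65Dn replicate 3, whose triplicated genes go against its label, is counted as Ts65Dn, among the low mice for Rpl26 and the high mice for Rps2.

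Rpl29, a small protein of the large subunit, was low in 1 mouse, wt replicate 3, at 0.080 CPM (2 counts) in the HIP and 0.275 CPM (10 counts) in the EC, while the other mice were at 1.69 to 5.34 CPM and 2.57 to 6.34 CPM. Its most abundant pseudogene, Gm10548, was at 1.68 and 0.990 CPM in that mouse. Rps29 behaved otherwise: it was low in the HIP of wt mice 2 and 5, at 13.9 CPM in each, and of Ts65Dn mouse 6, at 17.7 CPM, but in the EC of wt mice 1 and 4, at 14.5 and 12.8 CPM, and of Ts65Dn mouse 1, at 10.9 CPM. A processed pseudogene, Gm14303 (chr2:172509521-172509691), is identical to Rps29 over its 171 bases.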
